A study of Mus musculus with 5 samples.

Results

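Neural crest and Schwann cell genes were followed in 2 pigment cell populations sorted from mouse back skin. The set holds 29 genes listed by symbol, of 24100 genes in the count table, and all 29 were found there. The first population was quiescent melanocyte stem cells (qMcSC), the unpigmented reserve of the hair follicle's pigment lineage, taken in second telogen, the resting phase, from Dct-eGFP+ males of a CD1/C57Bl6J mix at postnatal days 60 and 62 (2 libraries, 4 males pooled in each). The second was melanocytes of full anagen, the growth phase, from Dct-EGFP+ Lef1-RFP+ males of the same mix at postnatal day 10 (3 libraries of 3, 2 and 4 pooled males). Both sorts took cells with the Dct reporter and medium to low integrin α6, and discarded CD31, CD45, CD140a, Sca1 and CD34. The melanocyte sort also required the Lef1 reporter and c-Kit. The reporter of both groups follows the promoter of Dct, an enzyme of melanin synthesis. The groups thus differ at once in age, hair cycle stage, reporters and sort gate, whose effects cannot be told apart.

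The neural crest is a transient embryonic cell population that gives rise to melanocytes and to the Schwann cells of peripheral nerves, and part of the skin's melanocytes descends from Schwann cell precursors that travel along nerves. Crest and precursor cells carry factors such as FOXD3 and adhesion molecules such as cadherin 19, whereas mature myelinating Schwann cells make large amounts of membrane proteins that compact the myelin sheath. The genes were therefore read in 6 groups: 8 crest and progenitor genes, 5 glial genes, 3 adhesion genes, 2 POU transcription factor genes, 4 receptor genes for the GDNF family of ligands, and 7 myelin genes.

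Library totals ranged from 17512381 to 124530834 counts, and values are given as CPM, that is counts per 1000000 after TMM scaling of the library sizes. "Called" means an adjusted p under 0.05 in edgeR's quasi-likelihood test over all 16953 genes tested, and folds are ratios of group mean CPM unless a log2 fold change (melanocyte minus qMcSC, ± SE) is named. Of the 10 melanocyte lineage markers read, none was at 0 in either group. They include Dct, whose promoter the reporter of both sorts follows, and Kit, whose product the melanocyte sort required. So they give no independent check of the sort. Their summed level was 19200 and 20410 CPM in qMcSC and 3085, 18120 and 19780 CPM in melanocyte replicates 1 to 3, so replicate 1 held less of it. Markers of other skin cells were mostly higher in melanocytes, although the sort discarded CD31, CD45 and CD140a, surface proteins of endothelial, immune and mesenchymal cells. Of 14 dermal papilla and fibroblast markers, 13 were called higher there, with sums of 42.5 to 87.9 CPM in qMcSC and of 2011 to 5996 CPM in melanocytes, highest in replicate 1. Of 14 hair follicle epithelium markers in the table, 13 were called higher (717.7 to 876.8 against 4882 to 6683 CPM). All 8 endothelial markers were called higher (1.56 to 1.64 against 22.2 to 52.6 CPM, with Cldn5 at 0 in qMcSC), and so were 6 of 7 tested muscle and pericyte markers (80.4 to 83.7 against 131 to 276 CPM). Of 8 immune markers, 4 were called higher in melanocytes and 3 lower. Their part in the differences below was not tested, and in bulk RNA fewer cells of a type and less RNA per cell cannot be told apart.

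Promoter windows of the RefSeq genes (250 bases before to 50 after a start, build GRCm38.p6) were at hand for 21 of the 29 genes. The 4 windows below belong to the genes with a single window that differed by the largest fold among those called, Foxd3 and Gfap toward qMcSC and Mal and Aqp1 toward melanocytes. Capitals mark the E-box CACGTG, a sequence bound by MITF and other basic helix-loop-helix factors.
Foxd3, chr4:99656049-99656348, plus strand: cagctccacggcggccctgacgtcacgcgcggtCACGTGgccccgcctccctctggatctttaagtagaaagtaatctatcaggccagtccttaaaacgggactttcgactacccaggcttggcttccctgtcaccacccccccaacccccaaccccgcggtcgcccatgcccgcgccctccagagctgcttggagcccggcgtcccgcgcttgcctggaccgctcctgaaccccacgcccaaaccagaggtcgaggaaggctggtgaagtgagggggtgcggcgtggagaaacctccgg
Gfap, chr11:102897151-102897450, minus strand: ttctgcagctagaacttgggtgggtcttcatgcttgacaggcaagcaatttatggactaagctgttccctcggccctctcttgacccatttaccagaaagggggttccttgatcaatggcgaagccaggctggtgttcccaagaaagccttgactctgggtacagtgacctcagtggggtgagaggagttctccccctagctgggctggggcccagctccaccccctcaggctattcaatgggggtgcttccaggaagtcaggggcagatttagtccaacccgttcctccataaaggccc
Mal, chr2:127656646-127656945, minus strand: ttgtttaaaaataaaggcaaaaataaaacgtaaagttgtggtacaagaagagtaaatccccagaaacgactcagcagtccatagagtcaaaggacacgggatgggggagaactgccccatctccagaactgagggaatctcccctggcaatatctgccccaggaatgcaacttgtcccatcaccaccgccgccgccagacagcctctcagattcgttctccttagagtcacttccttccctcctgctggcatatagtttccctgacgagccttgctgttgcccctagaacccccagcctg
Aqp1, chr6:55336049-55336348, plus strand: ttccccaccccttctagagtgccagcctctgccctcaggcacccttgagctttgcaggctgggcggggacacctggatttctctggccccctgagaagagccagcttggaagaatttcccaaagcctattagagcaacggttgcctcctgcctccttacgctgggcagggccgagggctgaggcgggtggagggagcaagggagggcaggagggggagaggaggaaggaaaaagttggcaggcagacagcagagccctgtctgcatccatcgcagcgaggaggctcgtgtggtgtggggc
Among these 4 the Foxd3 window alone held a searched motif. The Foxd3 window had a GC content of 65.7% and 25 CpG dinucleotides, that of Gfap 55.7% and 3, that of Mal 51.0% and 8, and that of Aqp1 62.7% and 8. The medians were 60% and 12 over the 29 windows of the 21 genes, and 52.7% and 7 over all 32851 windows. Searched on both strands, CACGTG was in 1 of the 29 windows (3.45%) against 7.15% of all windows, and the related CATGTG was in 2 (6.90% against 14.2%). The SOX core ACAAAG was in 5 (17.2% against 18.7%), in the windows of Cnp, Egfl8, Mag and Sox2, and ACAATG in 0, where 12.6% of all windows held it. These matches describe letters only.

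The set split between the populations. All 29 genes passed the filter on low counts, and 18 were called (62.1%), against 55.4% of all genes tested. Higher in melanocytes were 10 genes, where 29.1% of all genes were called in that direction, and higher in qMcSC were 8, where 26.2% were. The members' median log2 fold change was 0.27, and that of all tested genes 0.03. In 21 members the groups did not overlap, as in 74.5% of all genes. These shares lie near the background and are not a result about the set. Without qMcSC replicate 1 the genes higher in melanocytes were 6, while those higher in qMcSC stayed between 7 and 9 whichever library was left out.

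**Figure D1:**
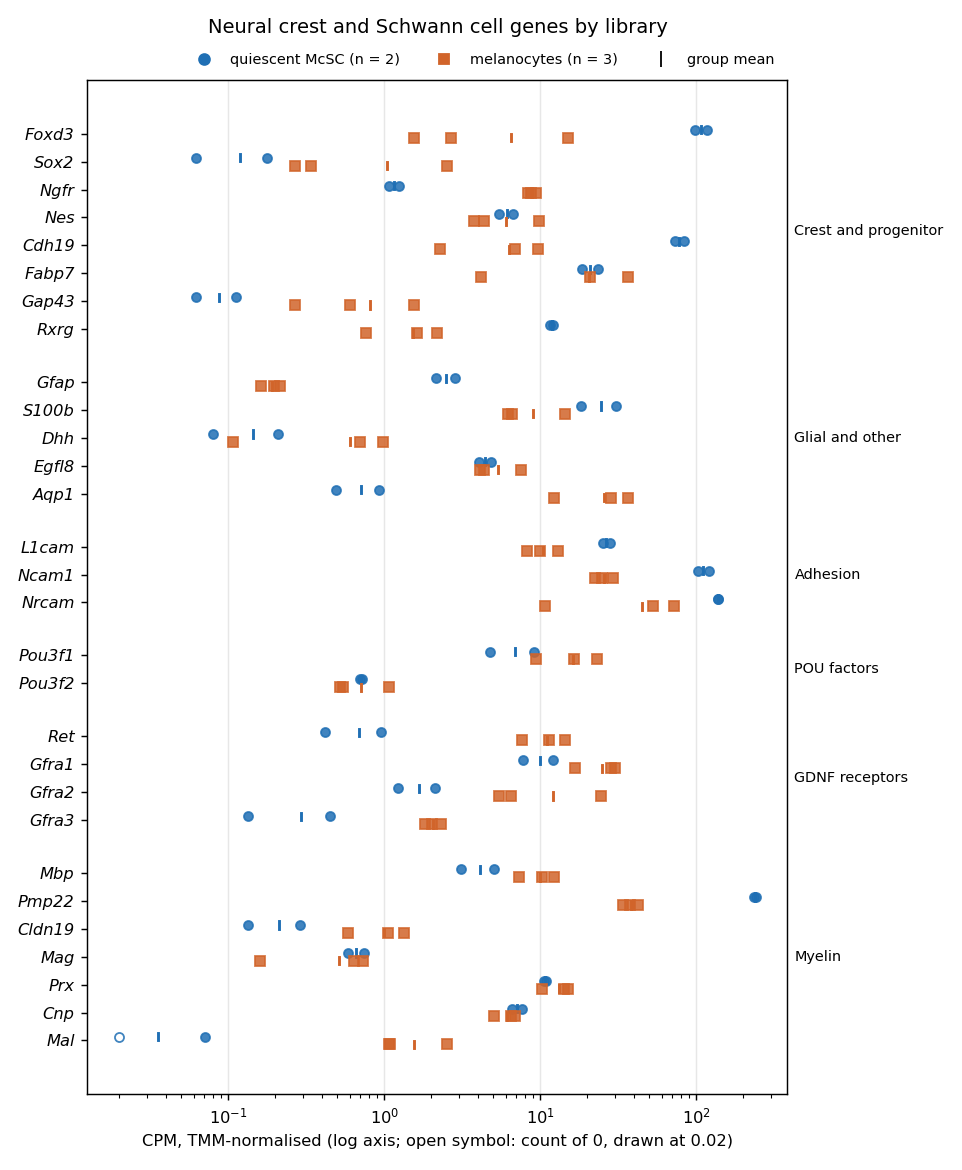
CPM of the 29 genes in each library on a log axis, by role, with qMcSC as blue circles, melanocytes as orange squares and ticks for group means. For Foxd3, Cdh19, Ncam1 and Pmp22 the qMcSC symbols sit to the right of the melanocyte symbols. For Aqp1, Ret, Ngfr and Mal the melanocyte symbols sit to the right, those of Mal at low levels of at most 2.52 CPM.

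Crest and progenitor genes divided into 3 higher in qMcSC, 2 higher in melanocytes and 3 not called. The share called, 62.5%, lay near the 55.4% of all genes tested, so the count is not a result about this group. Foxd3, the transcription factor that marks early neural crest (chromosome 4, 99656299 to 99658671), stood at 97.4 and 116 CPM in qMcSC and at 1.55, 2.67 and 15.1 CPM in melanocyte replicates 1 to 3. The groups did not overlap, and melanocyte replicate 3 was well above the other two. The group means were 16.6-fold apart (log2 fold change -4.14 ± 0.92, adjusted p = 0.0101), and without melanocyte replicate 3 the log2 fold change was -5.64. Cdh19, a cadherin of Schwann cell precursors (chromosome 1, 110888002 to 110977601), read 82.8 and 73.1 CPM in qMcSC against 2.27, 6.89 and 9.68 CPM, 12.4-fold lower in melanocytes (-3.66 ± 0.53, adjusted p = 0.00206). Every melanocyte library was far below both qMcSC libraries. Rxrg, the retinoid X receptor γ gene (chromosome 1, 167598362 to 167639623), read 12.1 and 11.6 CPM against 0.765, 1.61 and 2.19 CPM (-2.99 ± 0.43, adjusted p = 0.00200). These 3 calls held under every alternative setting tried, with the highest adjusted p for Foxd3 without qMcSC replicate 2 (0.0495, in a range over its alternatives from 0.000527).

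In the other direction went Ngfr, which encodes the low-affinity neurotrophin receptor p75, a surface marker of crest cells and of immature Schwann cells (chromosome 11, 95568818 to 95587698). It read 1.08 and 1.25 CPM in qMcSC and 9.40, 8.68 and 8.39 CPM in melanocytes, a 7.59-fold difference with little spread in either group (2.92 ± 0.25, adjusted p = 0.000325). Gap43, a growth-associated membrane protein gene (chromosome 16, 42248552 to 42340651), was called at very low levels, 0.112 and 0.0625 CPM against 1.55, 0.601 and 0.267 CPM (3.26 ± 0.88, adjusted p = 0.0211), on 14 counts in qMcSC and 109 in melanocytes. Its call was lost without qMcSC replicate 1 (adjusted p = 0.0815), without qMcSC replicate 2 (0.137) and after thinning all libraries to the shallowest (0.0821), in a range over all its alternatives from 0.00260 to 0.137, and without melanocyte replicate 1 the log2 fold change was 2.46. Sox2, a transcription factor gene of glial progenitors that dermal papilla and Merkel cells also use (chromosome 3, 34649995 to 34652461), read 0.176 and 0.0625 CPM against 2.54, 0.337 and 0.267 CPM. It was not called (3.20 ± 1.23, adjusted p = 0.0683), although DESeq2 called it (0.0176, in a range from 0.0176 to 0.281 over its alternatives) and the groups did not overlap. Its log2 fold change was 1.46 without melanocyte replicate 1 and 4.04 without qMcSC replicate 1. Most of its 131 melanocyte counts, 103, came from replicate 1, where the dermal papilla and fibroblast sum was also highest, at 5996 CPM. The Merkel cell marker sum was also highest in melanocyte replicate 1, at 16.7 CPM against 5.01 and 5.51 CPM in replicates 2 and 3. In qMcSC that sum was 5.21 and 4.10 CPM. Atoh1, the defining factor gene of Merkel cells, lay between 0 and 0.0625 CPM in all libraries. The part of either cell type in the Sox2 difference was not tested.

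Nestin (Nes), an intermediate filament gene of neural progenitors, was about level, at 5.47 and 6.68 CPM against 9.86, 4.35 and 3.74 CPM (-0.02 ± 0.46, adjusted p = 0.979). Fabp7, the brain fatty acid binding protein gene of Schwann cell precursors, read 18.4 and 23.3 CPM in qMcSC and 4.19, 20.9 and 36.3 CPM in melanocytes (-0.04 ± 0.76, adjusted p = 0.972). The melanocyte libraries of Fabp7 lay on both sides of qMcSC, and overlapped with them.

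Of the 5 glial genes, 2 were higher in qMcSC and 1 in melanocytes (60% called, against 55.4% of all genes tested). Gfap, the intermediate filament gene of astrocytes and of non-myelinating Schwann cells (chromosome 11, 102887336 to 102897200), read 2.15 and 2.84 CPM in qMcSC against 0.197, 0.161 and 0.214 CPM. All 3 melanocyte libraries lay together and below, on 23 counts in all (-3.73 ± 0.38, adjusted p = 0.000564, 13.1-fold). S100b, a calcium-binding protein gene used as a marker of both Schwann cells and melanocytes, read 18.2 and 30.5 CPM against 6.61, 14.3 and 6.201 CPM (-1.42 ± 0.43, adjusted p = 0.0316). That call was lost without qMcSC replicate 2 (0.199) and without melanocyte replicate 3 (0.0755), and its adjusted p ranged from 0.00445 to 0.199 over the alternatives. Aqp1, the water channel gene (chromosome 6, 55336299 to 55348555), was the glial gene higher in melanocytes, at 28.2, 36.5 and 12.3 CPM against 0.930 and 0.491 CPM. Its group means were 36.1-fold apart (5.20 ± 0.63, adjusted p = 0.00100). Endothelial cells also express Aqp1, and their marker sum followed the same order of melanocyte libraries, 43.9, 52.6 and 22.2 CPM. Its part in the difference was not tested.

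Dhh, the desert hedgehog gene through which Schwann cells signal to the nerve sheath, read 0.209 and 0.0803 CPM in qMcSC and 0.986, 0.704 and 0.107 CPM in melanocytes, on 22 and 90 counts. Its groups overlapped and its difference missed the threshold (2.16 ± 0.91, adjusted p = 0.0880). Without melanocyte replicate 3, in which it had 2 counts, it was called (0.0232, in a range from 0.0232 to 0.350 over the alternatives). Its log2 fold change was 2.92 without qMcSC replicate 1 and 1.57 without qMcSC replicate 2. Egfl8, an EGF-like domain gene, read 4.07 and 4.83 CPM against 7.57, 4.37 and 4.12 CPM (0.27 ± 0.35, adjusted p = 0.543). Exons of Dhh overlap an antisense gene over 25.2% of their length and Rhebl1 over 12.4%, and those of Egfl8 overlap the transcript Gm20460 over 34.9%, so the counts of these genes are uncertain there.

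The adhesion genes, which let neural cells and axons adhere to each other, were all lower in the melanocyte libraries. Of the 3, 2 passed the threshold (66.7%, against 55.4% of all genes tested). Ncam1, the neural cell adhesion molecule gene (chromosome 9, 49502129 to 49799393), read 101.9 and 120.2 CPM in qMcSC and 29.2, 22.4 and 24.8 CPM in melanocytes (-2.13 ± 0.15, adjusted p = 0.000164). L1cam (X chromosome, 73853778 to 73880838) read 25.3 and 27.8 CPM against 13.1, 9.91 and 8.23 CPM (-1.35 ± 0.23, adjusted p = 0.00344). Both groups were tight, and both calls held under all alternatives. Nrcam, an L1 family relative, read 137 CPM in each qMcSC library and 10.7, 52.8 and 71.6 CPM in melanocytes. It was not called (-1.61 ± 0.67, adjusted p = 0.0851), but it was without melanocyte replicate 1 (-1.14, adjusted p = 0.000889, the lowest of its alternatives, which reached 0.214) and by limma-voom (0.0337).

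Pou3f1 (Oct6), the POU factor gene switched on before myelination, read 4.75 and 9.10 CPM in qMcSC and 16.3, 9.38 and 23.2 CPM in melanocytes. The groups only just failed to overlap, and the gene was not called (1.23 ± 0.46, adjusted p = 0.0642), though it was by DESeq2 (0.0157), with library size as the only scaling (0.0426), after thinning (0.0473) and without melanocyte replicate 2 (0.0337), in a range over the alternatives from 0.0157 to 0.279. Pou3f2 (Brn2), its relative, which melanoma cells can also express, stayed near the same low level, at 0.722 and 0.696 CPM against 0.518, 0.543 and 1.07 CPM (-0.04 ± 0.47, adjusted p = 0.945).

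**Figure D2:**
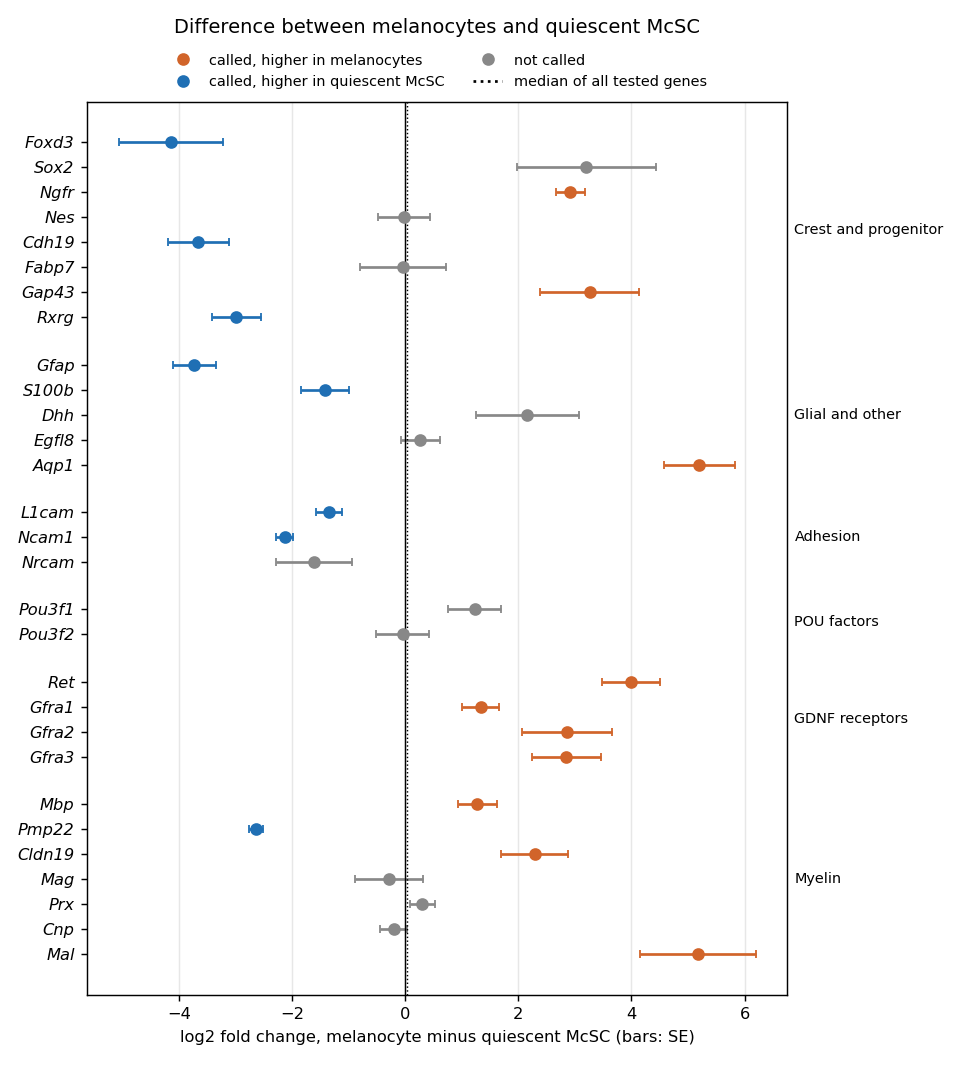
Log2 fold change of each gene, melanocyte minus qMcSC, with SE bars, by role and coloured by call; the dotted line is the median of all tested genes, 0.03. Every role with more than 3 genes except the GDNF receptors, where all 4 points lie to the right, has called genes on both sides.

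All 4 genes of the GDNF receptor system were called higher in melanocytes, where 29.1% of all genes tested were called in that direction. RET is the signalling receptor tyrosine kinase, and GFRA1, GFRA2 and GFRA3 are the co-receptors that bind GDNF, neurturin and artemin, respectively. Ret (chromosome 6, 118151748 to 118197744) read 0.417 and 0.955 CPM in qMcSC and 14.3, 11.3 and 7.59 CPM in melanocytes, 16.2-fold apart (3.99 ± 0.51, adjusted p = 0.00123), with a log2 fold change of 4.72 without qMcSC replicate 2. Gfra1 (chromosome 19, 58235581 to 58455946) read 7.73 and 12.1 CPM against 16.8, 28.2 and 30.0 CPM (1.33 ± 0.33, adjusted p = 0.0158). Gfra2 (chromosome 14, 70890107 to 70979840) read 1.22 and 2.12 CPM against 24.5, 6.47 and 5.40 CPM (2.86 ± 0.79, adjusted p = 0.0233). Gfra3 (chromosome 18, 34689898 to 34720387) read 0.449 and 0.134 CPM against 1.83, 2.30 and 2.03 CPM (2.85 ± 0.60, adjusted p = 0.00852). No member of the 4 overlapped between the groups, as was so for 74.5% of all genes tested. Gfra2 was several times higher in melanocyte replicate 1 than in the other two.

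The calls of Ret and Gfra3 held under all alternatives, although Gfra3 moved to 3.92 without qMcSC replicate 1 and to 2.19 without replicate 2. Gfra1 missed the threshold without qMcSC replicate 1 (0.0989) and without melanocyte replicate 2 (0.0536), and over its alternatives the adjusted p went from 0.000391 to 0.0989. Gfra2 missed it when either qMcSC library was absent (0.135 without replicate 1 and 0.0844 without replicate 2), and its range was 9.32e-05 to 0.135. Without melanocyte replicate 1 Gfra2 was called with a smaller log2 fold change, 1.83.

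The ligand of GFRA1 went the other way. Gdnf, which encodes glial cell line-derived neurotrophic factor, read 134 and 159 CPM in qMcSC and 1.85, 0.396 and 0.588 CPM in melanocytes, 155-fold apart (-7.28 ± 0.60, adjusted p = 0.000269). The other ligand genes of the family, named here after their values were seen, were low in both groups, and none of the 3 was called. Artn (artemin) lay between 0.160 and 0.370 CPM and Pspn (persephin) between 0.220 and 0.535 CPM. Nrtn (neurturin) varied within each group, at 0.561 and 1.96 CPM in qMcSC and 0.345, 0.191 and 2.30 CPM in melanocytes. Of the 12 ligand and receptor genes of the GDNF family and the neurotrophins outside the set, 11 were tested, 4 were higher in melanocytes and 2 in qMcSC, with a median log2 fold change of 0.04 against 0.03 for all genes. Those 6 genes are 54.5% of the 11, about the share called among all genes, 55.4%.

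The neurotrophin receptor genes, too, were called in both directions. Ntrk2, the receptor gene for brain-derived neurotrophic factor, read 3.05 and 4.37 CPM against 29.5, 13.02 and 13.6 CPM (2.33 ± 0.46, adjusted p = 0.00632). Ntrk3, the neurotrophin 3 receptor gene, read 0.0321 and 0.107 CPM against 16, 4.30 and 3.48 CPM (6.68 ± 1.07, adjusted p = 0.00289). Both were highest in melanocyte replicate 1, as were the dermal papilla and fibroblast markers. Sort1, which encodes sortilin, a partner of p75 in binding neurotrophin precursors, was higher in qMcSC, at 389 and 435 CPM against 67.1, 115 and 109 CPM (-2.09 ± 0.24, adjusted p = 0.000880), opposite to Ngfr. Bdnf (2.04 ± 0.42, adjusted p = 0.00776) and the neuregulin gene Nrg1 (3.30 ± 0.56, adjusted p = 0.00363) were higher in melanocytes at low levels, at most 1.26 CPM for Bdnf and 0.567 CPM for Nrg1.

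**Figure D3:**
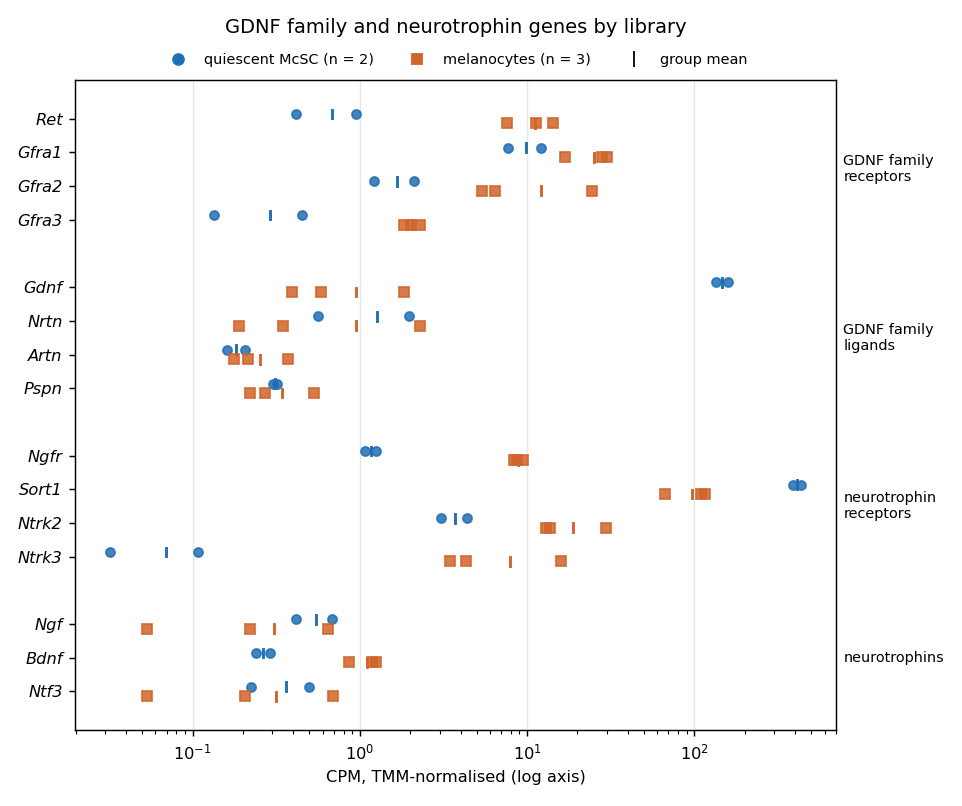
CPM per library on a log axis for GDNF family receptors and ligands and for neurotrophin receptors and ligands, with symbols as in the plot of all members. Gdnf at 134 and 159 CPM and Sort1 at 389 and 435 CPM stand out in qMcSC. For Ret, Gfra3, Ngfr and Ntrk3 the melanocyte symbols lie to the right of the qMcSC symbols.

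Myelin genes did not move together. Of 7, 3 were higher in melanocytes, 1 was higher in qMcSC and 3 were not called. That is 57.1% called, against 55.4% of all genes tested, so the count is not a result about myelin genes. Their median log2 fold change was 0.30, against -0.03 for the 8 progenitor genes. The log2 fold changes ran from -2.64 to 5.18, against -4.14 to 3.26 for the progenitor genes. Pmp22, peripheral myelin protein 22, a gene that many other cells also express (chromosome 11, 63128982 to 63159547), had the highest CPM of the set in qMcSC, at 240.0 and 234 CPM in qMcSC and 42.5, 37.7 and 33.9 CPM in melanocytes. Both groups were tight and 6.23-fold apart (-2.64 ± 0.12, adjusted p = 6.10e-05). Mbp, myelin basic protein, whose locus also makes the Golli transcripts of cells without myelin (chromosome 18, 82475091 to 82585637), read 3.11 and 5.06 CPM against 10.2, 12.2 and 7.27 CPM (1.28 ± 0.34, adjusted p = 0.0207). Its call was lost without qMcSC replicate 1 (0.120) or melanocyte replicate 2 (0.0674), in a range from 0.000976 over the alternatives.

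Cldn19, a tight junction claudin gene of Schwann cells, read 0.289 and 0.134 CPM against 1.06, 1.33 and 0.588 CPM (2.29 ± 0.59, adjusted p = 0.0179). It had 33 qMcSC and 145 melanocyte counts, and the call was lost without qMcSC replicate 2 (0.115), without melanocyte replicate 2 (0.0540) or after thinning (0.0645), in a range from 0.00302 to 0.115 over the alternatives. Without qMcSC replicate 1 its log2 fold change was 2.90. Mal, a proteolipid gene of myelin and of epithelia (chromosome 2, 127633226 to 127656695), had 0 and 8 counts in qMcSC and 44, 172 and 20 in melanocytes (5.18 ± 1.02, adjusted p = 0.00651). The call held under all alternatives where it was tested, but the size of the difference rests on 8 qMcSC counts: the log2 fold change was 4.43 without qMcSC replicate 1 and 9.23 without replicate 2, which leaves a group at 0. The 13 hair follicle epithelium markers called higher in melanocytes went in the same direction as Mal, and their part in it was not tested.

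The genes most tied to compact myelin and its axon contact showed no call. Mag, the myelin-associated glycoprotein gene, read 0.738 and 0.589 CPM against 0.641, 0.733 and 0.160 CPM (-0.30 ± 0.60, adjusted p = 0.699). Prx, the periaxin gene, read 10.9 and 10.5 CPM against 14.2, 15.01 and 10.2 CPM (0.30 ± 0.23, adjusted p = 0.296). Cnp, a phosphodiesterase gene of myelin, read 6.54 and 7.61 CPM against 6.46, 6.88 and 5.03 CPM (-0.21 ± 0.24, adjusted p = 0.503). In all 3 the groups overlapped.

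Of 22 further Schwann lineage genes, 11 were higher in qMcSC, 6 higher in melanocytes and 5 not called (77.3% called against 55.4% of all genes), with a median log2 fold change of -0.96. The 4 with the smallest p toward qMcSC were Zeb2, a repressor gene needed for Schwann cell differentiation (396 and 372 CPM against 73.8, 62.1 and 61.6 CPM), Ets1, a transcription factor gene of early crest (461 and 506 against 17.1, 26.5 and 29.3 CPM), Erbb3, the neuregulin receptor gene (236 and 273 against 76.8, 73.4 and 77.0 CPM), and Gjc3, a connexin gene of myelinating glia (109 and 114 against 11.8, 17.5 and 21.9 CPM). Their log2 fold changes were -2.54 ± 0.13, -4.32 ± 0.25, -1.75 ± 0.11 and -2.72 ± 0.25. Toward melanocytes were Yap1, a Hippo pathway coactivator gene (135 and 140 against 254, 278 and 256 CPM), Nab2, a corepressor gene of EGR factors (49.1 and 50.04 against 136, 96.7 and 107 CPM), and Cadm4, an adhesion gene of the Schwann cell and axon contact (0.866 and 1.07 against 3.97, 5.44 and 3.58 CPM). The 3 log2 fold changes were 0.93 ± 0.11, 1.19 ± 0.17 and 2.16 ± 0.35, and the adjusted p of these 7 genes ranged from 7.01e-05 (Zeb2) to 0.00294 (Cadm4).

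Levels of different genes were compared per kilobase of merged exons in GENCODE M21. In qMcSC, Pmp22 ranked first at 101 CPM per kilobase, followed by Foxd3 at 46.0 and by Cdh19, Fabp7 and S100b at 18.2, 16.7 and 16.4, whose library ranges overlapped (17.1 to 19.3, 14.7 to 18.6 and 12.3 to 20.5). In melanocytes Fabp7 and Pmp22 led at 16.4 and 16.2 CPM per kilobase, and the ranges of the 2 overlapped (3.35 to 29.04 and 14.4 to 18.1). Aqp1 followed at 9.77 (4.68 to 13.9), and Foxd3 ranked 11 at 2.78 CPM per kilobase. On the CPM scale, 10 members were above 10 CPM in every qMcSC library and 6 in every melanocyte library, and 5 had a mean under 1 CPM in both groups.

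The melanocyte libraries differed among themselves in many genes of the set. In replicate 1 the melanocyte lineage sum stood at a log2 ratio of -2.62 to the mean of replicates 2 and 3, and the dermal papilla and fibroblast sum at 1.51. Foxd3 (-2.52), Cdh19 (-1.87), Rxrg (-1.32), Fabp7 (-2.77) and Nrcam (-2.54) were more than 2-fold lower in replicate 1 than that mean, as the lineage markers were. Sox2 (3.07), Gfra2 (2.05), Gap43 (1.84), Nes (1.28) and Dhh (1.28) were more than 2-fold higher there, as were the dermal papilla and fibroblast markers and the Merkel cell list (1.67), whose sum in replicate 1 was mostly Piezo2 (10.7 of 16.7 CPM). The remaining 19 genes were within 2-fold, Ngfr (0.14), Mbp (0.07), Gfap (0.07) and Pmp22 (0.25) among them. Replicates 2 and 3 were alike in the lineage sum (0.126 apart on the log2 scale) but not in Foxd3 (2.5 apart) or Dhh (2.72 apart), for which replicate 3 was the library farthest from the others. These ratios rest on 1 library, and no test was made.

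**Figure D4:**
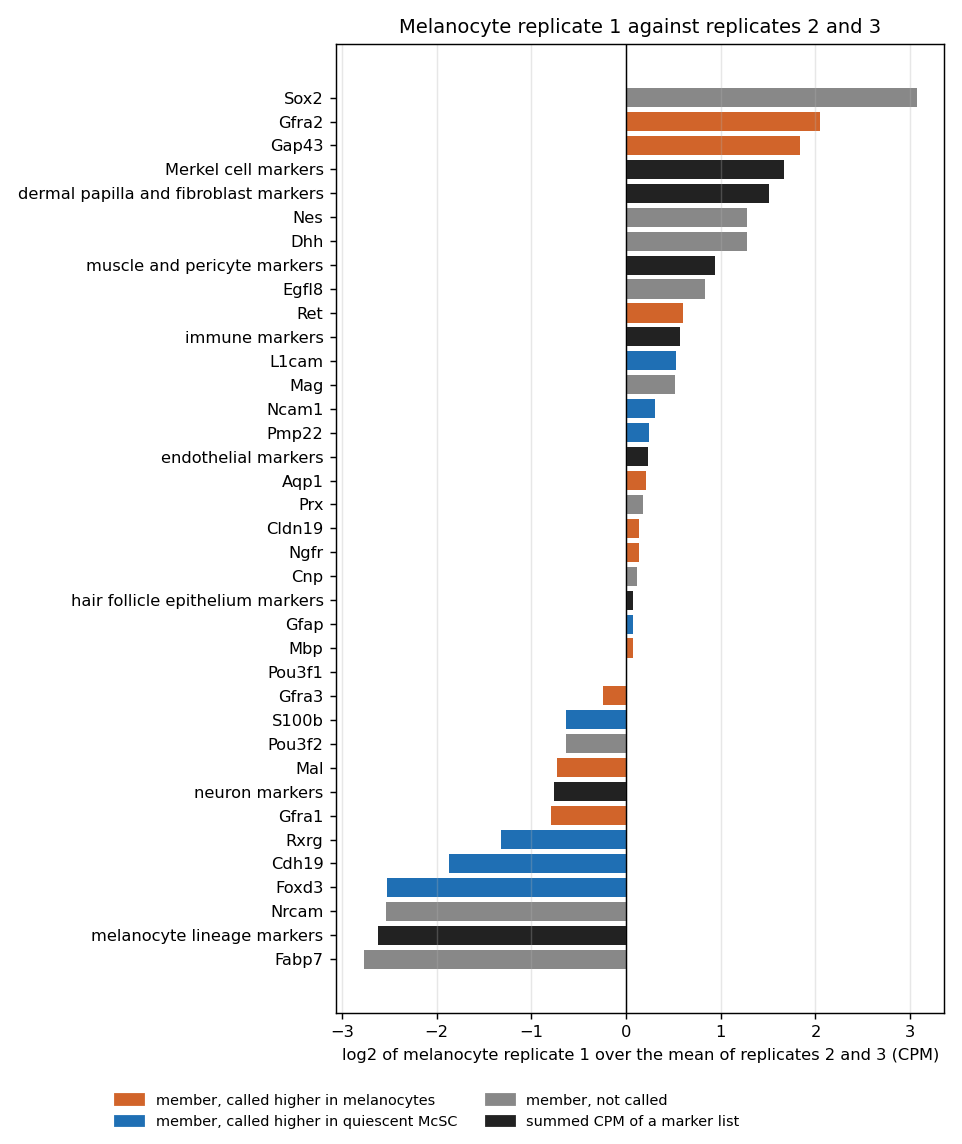
Log2 ratio of melanocyte replicate 1 to the mean of replicates 2 and 3 for the 29 genes, coloured by call, and for the summed CPM of 8 marker lists in black. Fabp7, Nrcam, Foxd3 and Cdh19 lie near the melanocyte lineage sum at -2.62, and Sox2, Gfra2 and Gap43 lie beyond the dermal papilla and fibroblast sum at 1.51.

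Since the lineage marker sum differed between libraries, each gene was also set against Sox10, a transcription factor gene that crest, Schwann and pigment cells share and that was itself higher in qMcSC (346 and 566 CPM against 54.6, 123 and 212 CPM; -1.81 ± 0.53, adjusted p = 0.0287). Per 1000 CPM of Sox10, Foxd3 stood at 282 and 205 CPM in qMcSC against 28.5, 21.7 and 71.3 CPM in melanocytes. Cdh19 stood at 240 and 129 CPM against 41.6, 56.2 and 45.6 CPM on that scale, and Rxrg and Gfap also stayed apart. The other 4 genes called higher in qMcSC, S100b, L1cam, Ncam1 and Pmp22, overlapped between the groups per Sox10, as they did per Dct. Pmp22, for example, stood at 695 and 414 CPM against 779, 307 and 160 CPM. Both references were higher in qMcSC by group means, Sox10 3.51-fold and Dct 2.47-fold, so the division itself moves every gene toward melanocytes, and nothing is read from the 10 genes called higher in melanocytes, which stayed apart, or from the overlap of those 4. Of the 11 genes not called, 8 were higher in melanocytes without overlap per Sox10 and 7 per Dct, among them Fabp7, at 53.3 and 41.1 CPM against 76.8, 170.0 and 171 CPM per 1000 CPM of Sox10. The division moves these genes as well, and the share of all genes apart on this scale was not computed, so nothing is read from them either. Nes was apart per Sox10 and overlapped per Dct. Foxd3, Cdh19, Rxrg and Gfap were higher in qMcSC with either reference. These ratios were not tested, and they move with the reference gene's own level per cell.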

How the data were processed

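Per the labels, poly-A selected, non-stranded RNA libraries were sequenced from 2 qMcSC and 3 melanocyte pools, called biological replicates; p-values measure the spread between these pools. The deposited table gives raw whole-number counts per Entrez gene and library. Per the submitters' processing notes, the build was mm10, and STAR (2.5.2a) and Salmon (0.8.2) are listed with no role. The counting program is not given in the sources used here. Symbols and coordinates came from RefSeq GRCm38.p6 (24045 of 24100 identifiers matched).

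Counts were filtered with filterByExpr, TMM-normalised and tested by the two-sided quasi-likelihood F-test of edgeR 4.0.16 (R 4.3.3) without covariates, with Benjamini-Hochberg adjustment over all 16953 genes, and the procedure was tested on simulated data. Values are TMM-scaled CPM. A count of 3 equals 0.0268 to 0.160 CPM by library. Each SE is the log2 fold change divided by the root of F. No mean ± SD is given, since each library's value is.

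Members, role groups and lists were chosen with earlier results of these data known. The text names all members, of the 2 further lists up to 4 called genes per direction by smallest p, and a few other genes (such as Sox10, Piezo2 and Atoh1) after their values were seen. Of the Schwann lineage list, 2 genes enter the counts and are not named. Alternatives were other scalings, filters, DESeq2 1.42.0, limma-voom (limma 3.58.1), a replicate block, thinning and leaving out each library.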

Additional observations from a re-analysis of the deposited data

How the results depend on the processing

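Across 14 alternatives and 29 genes, 395 values were obtained, of which 352 kept direction and side of the threshold, 14 lost a call, 11 gained one and 18 changed sign. Of the 18 called genes, 12 kept their call under every alternative in which they were tested, and no called gene changed sign. With at least 5 CPM required in 2 libraries, 19 members were tested, and 6 members, 1 progenitor gene and 1 myelin gene were higher in melanocytes, since low genes left the test. After thinning, 1 progenitor gene was higher in melanocytes. Leaving out 1 library at a time gave 6 to 11 members, 1 to 2 progenitor genes and 1 to 3 myelin genes higher in melanocytes, and 7 to 9, 3 and 1 higher in qMcSC. When a qMcSC library is left out, the other is assumed to vary like the melanocyte libraries.

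The sign changes were all in uncalled genes near 0. With library size only, log2 fold changes were 0.23 for Nes, 0.17 for Fabp7, 0.18 for Pou3f2 and 0.017 for Cnp; that scaling moved the median of all genes from 0.03 to 0.26 and the share of calls that were higher in melanocytes from 52.6% to 63.7%. Nes was at 0.016 with the stricter filter and 0.035 after thinning, where Pou3f2 was at 0.28. The ranges on leaving out 1 library were -0.57 to 0.23 for Nes, -0.73 to 0.45 for Fabp7, -0.41 to 0.12 for Pou3f2, -0.064 to 0.42 for Egfl8 and -0.64 to 0.062 for Mag.

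The replicate numbers share no stated animal or batch, and the replicate 1 minus replicate 2 deviations of the groups had a correlation of -0.02 across genes, so the numbers were not taken as pairs. With the number as a replicate block, 12 members were higher in melanocytes and 9 in qMcSC, 7409 of all genes were called, Sox2, Dhh and Nrcam passed the threshold (adjusted p of 0.0186, 0.0284 and 0.0206 in edgeR's test), Nes was at 0.12 and Mag at 0.064. Genes with few counts, such as Mal, Gap43, Sox2 and Dhh, are limited by depth, above all in melanocyte replicate 3.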

Other observations

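Neuron markers summed to 8.90 and 7.38 CPM in qMcSC and to 14.2, 20.03 and 28.0 CPM in melanocytes. Of 12, 6 were tested and 3 were called higher in melanocytes. The neurofilament genes Nefl and Nefm were too low to be tested. They had no count in any melanocyte library, and only 1 and 3 (Nefl) and 3 and 7 (Nefm) counts in the qMcSC libraries. Tubb3, a tubulin gene, read 7.31 and 5.59 CPM in qMcSC and 9.52, 15.04 and 19.99 CPM in melanocytes. Elavl4, an RNA-binding protein gene of neurons, read 0.112 and 0.0714 CPM against 0.345, 2.30 and 4.81 CPM. Uchl1 read 0.112 and 0.0536 CPM against 0.197, 0.557 and 0.802 CPM. Stmn2, Snap25 and Elavl3, also tested, were not called. Melanocyte replicate 1 was the highest melanocyte library for Stmn2 and Snap25 (3.06 and 0.370 CPM). For Elavl3 it lay between the others (0.493 CPM, against 0.264 and 0.695 CPM), and for the 3 called genes it was the lowest. These genes were named after their values were seen.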
